A study of Mus musculus with 8 samples.

Results

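Integrins and cadherins are the main receptors by which skeletal cells hold on to matrix and to each other, and 49 table entries of these families were examined among 22053 protein-coding entries. Members were chosen by symbol alone, as genes whose name is Itga, Itgb or Cdh followed by the subunit number or letter. This gave 19 entries for integrin alpha chains, 8 for integrin beta chains and 22 for cadherins, under 48 symbols, since 2 overlapping gene models carry the symbol Itgam. The study sequenced RNA from sorted skeletal cells of WT mice at postnatal day 10 and set candidate vertebral skeletal stem cells (vSSC) from the spine against long bone skeletal stem cells (lbSSC) from femur and tibia. There were 4 libraries per group, each with 2 from males and 2 from females. Replicates 1 and 2 of each group were male and replicates 3 and 4 female. The same fraction was sorted at both sites: CD200+ cells from which those bearing CD31, TER119, CD45, Thy, CD105 or 6C3 had been removed. The labels call the samples biological replicates and give no number of animals, so p-values measure only the spread between these samples.

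An integrin is a pair of one alpha and one beta chain that spans the membrane, binds matrix outside and is linked to actin inside through talin, kindlin and their partners. The alpha chain largely sets the ligand: some chains take collagen, some laminin, and some proteins that carry the RGD motif, such as fibronectin and vitronectin. Cadherins bind like to like between neighbouring cells and are linked to actin through catenins, and in cartilage and bone N-cadherin (Cdh2) and OB-cadherin (Cdh11) are the classical members best known.

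Levels are in FPKM, fragments scaled by transcript length and sequencing yield, so they can be compared between genes. Group values are means ± SD with n = 4. A difference is log2(FPKM + 1) of vSSC less that of lbSSC, ± SE, a scale that shrinks changes at low levels, and adjusted p-values are from limma with Benjamini-Hochberg adjustment over all 10729 genes tested. A gene entered the test, and is called expressed here, where 4 or more of the 8 libraries held 1 FPKM or more. A gene was called at an adjusted p under 0.05. FPKM summed to between 517314 and 571869 in vSSC libraries and between 460302 and 521489 in lbSSC libraries, and read totals were not used here, so the depth behind a value is unknown. The 86 ribosomal protein genes took 20.2 ± 1.49% of the FPKM in vSSC libraries and 17.0 ± 1.43% in lbSSC libraries. Of the sorting markers, Cd200 was at 109.3 ± 22.5 FPKM in vSSC libraries and 101.0 ± 28.1 FPKM in lbSSC libraries, Pecam1 (CD31), Ptprc (CD45) and Thy1 were under 1 in every library, and Eng (CD105) and Enpep (6C3) reached 1.17 and 1.76 FPKM at most. TER119 is not read through a single transcript and has no value here. The cartilage markers Col2a1, Acan, Sox9, Col9a1, Matn3 and Comp were all expressed, and summed to between 13152 and 22192 FPKM in vSSC libraries and between 15449 and 25633 FPKM in lbSSC libraries. The osteoblast markers Col1a1, Bglap, Sp7, Ibsp and Dmp1 were also all expressed, and summed to between 1052 and 1119 FPKM in vSSC libraries and between 3911 and 5775 FPKM in lbSSC libraries. Red cell markers summed to between 3535 and 4873 FPKM in vSSC libraries and between 3889 and 7929 FPKM in lbSSC libraries, and the 4 muscle markers examined were each at or below 0.0874 FPKM.

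Of the 49 entries, 15 were expressed, which is 30.6%, beside 48.7% of all entries in the table. They were 8 integrin alpha chains, 3 integrin beta chains and 4 cadherins. In vSSC libraries 11 members were at or above 1 FPKM in all 4, and in lbSSC libraries 14 were. Over all protein-coding entries, each vSSC library held between 10337 and 10578 at 1 FPKM or more, and each lbSSC library between 10644 and 10753. Lower numbers in vSSC libraries were thus not limited to these members. Itgb1, the beta chain shared by most matrix-binding integrins, stood first in level with a mean of 133.1 FPKM over the 8 libraries, higher than 94.6% of expressed genes. Itga10 followed at 51.6 FPKM, Itgb5 at 37.6, Itgav at 22.8, Itga5 at 17.4 and Itga6 at 11.9 FPKM. The other 9 were below 10 FPKM: Cdh11 at 8.53, Itga9 at 4.78, Itga8 at 3.99, Cdh2 at 3.42, Itga1 at 2.78, Itga11 at 2.47, Itgb3 at 1.62, Cdh13 at 1.48 and Cdh19 at 1.10 FPKM. Of the 14 pairs of neighbours in this order 5 stood in the same order in all 8 libraries, namely Itgb1 above Itga10, Itga10 above Itgb5, Itgb5 above Itgav, Itga5 above Itga6 and Cdh11 above Itga9. The other 9 pairs changed order in at least 1 library.

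**Figure D1:**
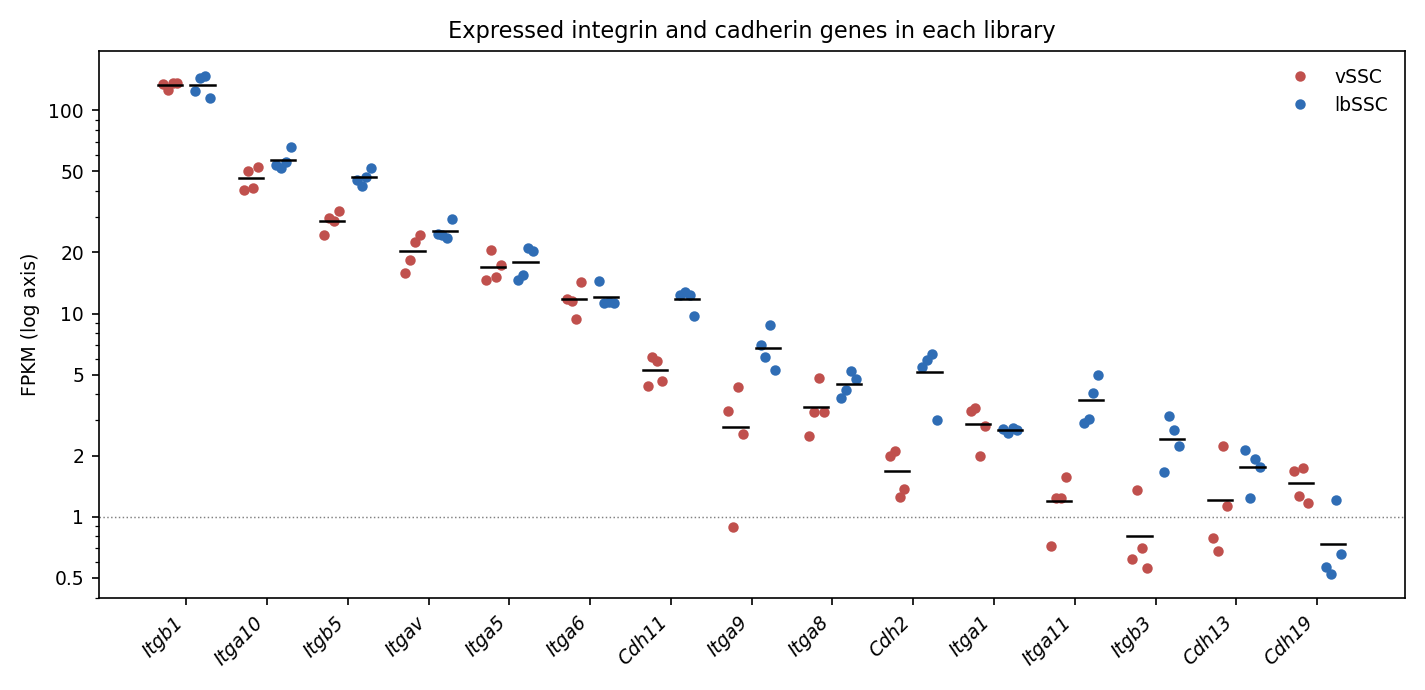
FPKM of the 15 expressed integrins and cadherins on a log axis, one point per library, vSSC and lbSSC side by side for each gene, with the mean marked. Itgb1 lies above 115 FPKM in all 8 libraries, and for Itgb5, Itga9, Itga11, Itgb3, Cdh11 and Cdh2 every vSSC point lies below every lbSSC point.

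The site comparison asks which of these adhesion genes are set differently in vertebral and long bone cells. Of the 15 tested members limma called 6 lower in vSSC and none higher, and 9 did not pass the test. Among these 9, Cdh19 was higher and Itga10 and Itgav were lower at an unadjusted p under 0.05. The 6 were the integrin chains Itga9, Itga11, Itgb3 and Itgb5 and the cadherins Cdh2 and Cdh11. Among all tested genes 23.5% were called, 14.3% higher and 9.17% lower in vSSC, which stands beside 6 of 15 members lower. Itgb3 is counted among the 6 although it passed the filter only with its lbSSC libraries, where it is high. Itga9 and Itga11 reached 1 FPKM in 3 of 4 vSSC libraries, so they too needed lbSSC libraries to pass. The same holds for Cdh13, which was not called, with 2 of 4. Cdh19 passed only with its vSSC libraries. The counts therefore describe the members that passed and not all 49. In these 6 members all vSSC libraries were below all lbSSC libraries, as in 9.99% of all tested genes, and no member had the vSSC libraries above. In all tested genes the groups were apart in 25.8%, counting both directions. The median difference was -0.33 for the 15 members and 0.08 for all tested genes. When each library was rescaled to one sum the medians were -0.45 for the members and -0.04 for all tested genes. All 6 calls held under the 3 other scalings tried, and quantile normalization gave 7 members lower and 1 higher, the additions being Itga10 and Cdh19. Rescaling to one sum gave 7 lower, the addition being Itga10 (adjusted p = 0.0489, limma). In bulk RNA, fewer cells of a type and less RNA per cell cannot be told apart.

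**Figure D2:**
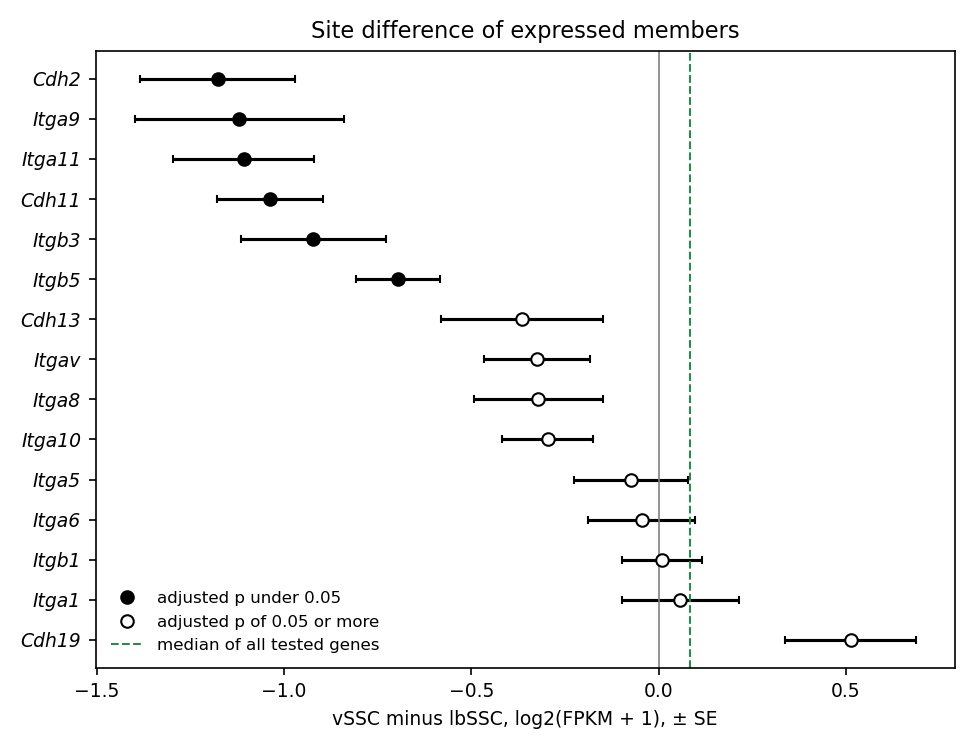
Difference between vSSC and lbSSC (log2(FPKM + 1) scale) with its SE for the 15 expressed members, filled where the adjusted p was under 0.05, with the median of all tested genes as a line. The 6 called members lie between -1.18 and -0.70, left of the median of all genes at 0.08.

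Among collagen-binding chains, Itga10 carried most of the message in both groups and Itga11 differed between them. Itga10, a collagen receptor chain typical of chondrocytes, was at 40.7, 50.4, 41.3 and 52.6 FPKM in vSSC libraries, against 53.8, 52.3, 55.6 and 65.8 FPKM in lbSSC libraries. The groups overlapped by 1 library, vSSC replicate 4 being above lbSSC replicate 2, and the difference of -0.30 ± 0.12 did not pass the test (adjusted p = 0.0983, limma). Itga11, a chain known from mesenchymal cells that bind fibrillar collagen, was at 0.721, 1.24, 1.23 and 1.57 FPKM in vSSC libraries, against 2.90, 3.04, 4.05 and 5.0 FPKM in lbSSC libraries. The highest vSSC library was below the lowest lbSSC library. The difference was -1.11 ± 0.19 (adjusted p = 0.00179), -1.01 between the males and -1.20 between the females. Itga1, which binds collagens of basement membrane and fibrils, averaged 2.87 ± 0.648 FPKM in vSSC libraries and 2.68 ± 0.0624 FPKM in lbSSC libraries, with overlap (0.06 ± 0.16, adjusted p = 0.813). Itga2, the remaining chain of this class, was below 1 everywhere, at 0.0662 ± 0.0603 FPKM in vSSC libraries and 0.243 ± 0.0943 FPKM in lbSSC libraries, and was not tested.

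As a share of the 4 collagen-binding chains, Itga10 made up 91.0, 91.4, 92.7 and 92.1% in vSSC libraries and 90.2, 89.7, 88.9 and 89.3% in lbSSC libraries. Itga11 made up 1.61, 2.25, 2.77 and 2.75% in vSSC libraries and 4.86, 5.22, 6.48 and 6.79% in lbSSC libraries. Both shares separated the groups without overlap, Itga10 being above and Itga11 below in vSSC. Shares of the same sum are not independent, and the level of Itga10 itself overlapped between the groups. The ratio of Itga10 to Itga11 was 41.0 ± 10.8 in vSSC libraries and 15.7 ± 2.63 in lbSSC libraries. The 4 chains together summed to 50.4 ± 6.69 FPKM in vSSC libraries and 63.5 ± 7.0 FPKM in lbSSC libraries, also without overlap. The spans of Itga10 and Itga1 overlap those of other annotated genes, Itga10 with Gm42957 and Itga1 with Pelo and Gm49395. Whether their exons overlap was not examined, and how the authors counted shared reads is not stated in the labels. The libraries carry no strand.

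**Figure D3:**
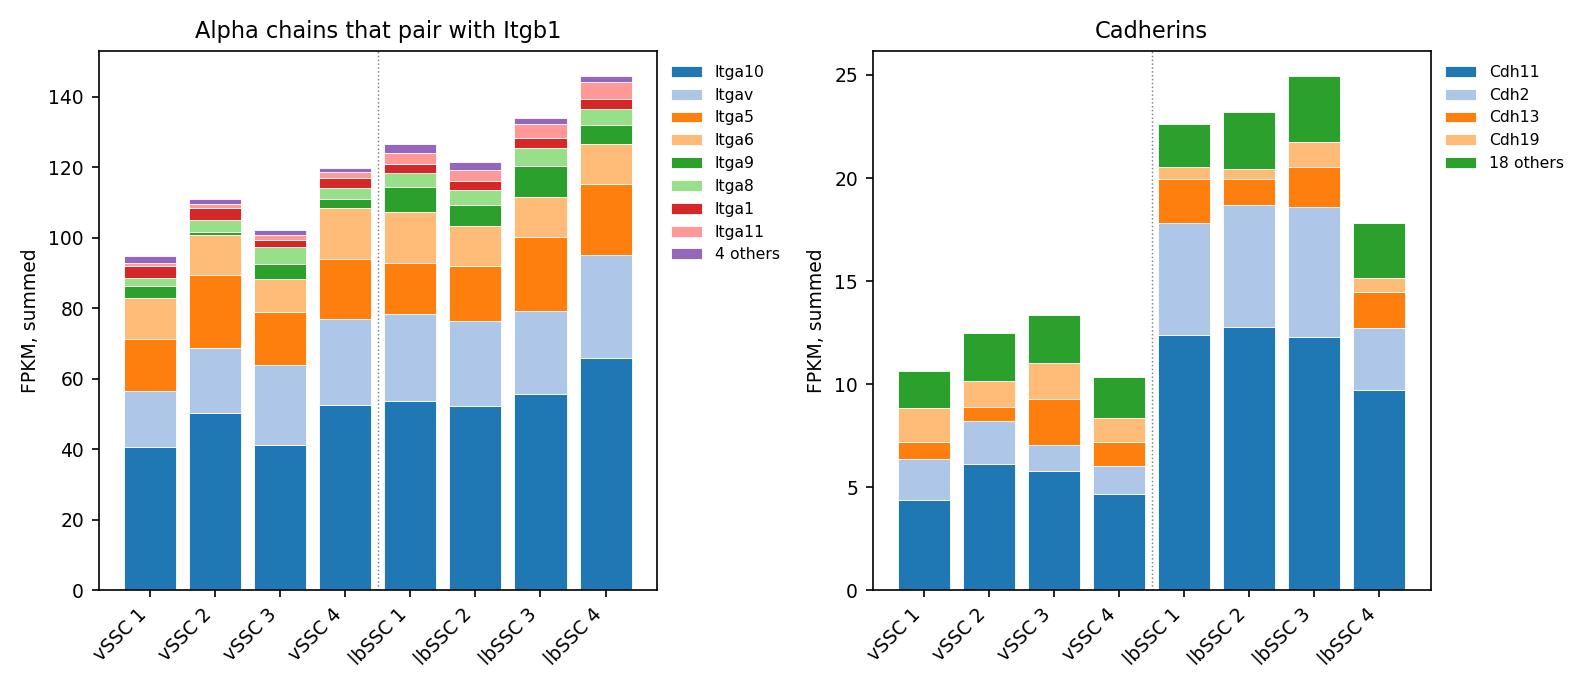
Summed FPKM of the integrin alpha chains that pair with Itgb1 (left) and of the cadherins (right), one stacked bar per library with vSSC left of lbSSC and one colour per gene. The cadherin bars reach 10.3 to 13.3 FPKM in vSSC libraries and 17.8 to 24.9 FPKM in lbSSC libraries, while Itga10 takes 40.4 to 45.4% of the alpha chain bar in vSSC libraries and 41.5 to 45.1% in lbSSC libraries.

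The RGD-binding alpha chains were led by Itgav and Itga5, neither of which passed the test, while Itgb5 and Itgb3, beta partners of Itgav, were lower in vSSC. The differences of the beta chains were not tested against that of Itgav. Itgb5, which pairs with Itgav as a vitronectin receptor, was at 24.4, 29.4, 28.4 and 31.9 FPKM in vSSC libraries, against 45.5, 42.6, 46.9 and 51.8 FPKM in lbSSC libraries. No vSSC library came within 10 FPKM of an lbSSC library. The difference was -0.70 ± 0.11 (adjusted p = 0.00136), -0.70 between the males and -0.69 between the females. Itgb3, the beta chain of the platelet and osteoclast integrins, was at 0.623, 1.35, 0.701 and 0.557 FPKM in vSSC libraries, against 1.65, 3.13, 2.67 and 2.24 FPKM in lbSSC libraries. It reached 1 FPKM in 1 of 4 vSSC libraries and in all 4 lbSSC libraries, and so entered the test through the group where it is high. Its difference was -0.92 ± 0.19 (adjusted p = 0.00645), and without vSSC replicates 1 and 3 together it was -0.82 (adjusted p = 0.0527).

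Itgav itself, the alpha chain of both, was at 15.8, 18.4, 22.5 and 24.2 FPKM in vSSC libraries, against 24.5, 24.2, 23.5 and 29.3 FPKM in lbSSC libraries. Replicates 3 and 4 of vSSC, the females, were close to or within the lbSSC range, and the difference of -0.33 ± 0.14 did not pass (adjusted p = 0.115). The ratio of Itgb5 to Itgav was 1.43 ± 0.162 in vSSC libraries and 1.84 ± 0.108 in lbSSC libraries, without overlap, so the beta chain was above the alpha chain in message in every library. Itga5, which with Itgb1 forms the classical fibronectin receptor, averaged 16.9 ± 2.70 FPKM in vSSC libraries and 17.9 ± 3.26 FPKM in lbSSC libraries (-0.07 ± 0.15, adjusted p = 0.757). Itga8, whose pair with Itgb1 binds nephronectin, averaged 3.47 ± 0.966 FPKM in vSSC libraries and 4.51 ± 0.599 FPKM in lbSSC libraries (-0.32 ± 0.17, adjusted p = 0.190). Both overlapped between the groups.

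The osteoclast markers as a sum were, like Itgb3, lower in vSSC. Summed FPKM of Ctsk, Acp5, Mmp9 and Ocstamp was 57.5 to 79.2 in vSSC libraries and 109.1 to 132.7 in lbSSC libraries, and 3 of 3 tested markers were lower in vSSC. The call of Ctsk, which holds most of the sum, was kept in all 19 alternatives, those of Acp5 and Mmp9 were lost in 5 of 19 and 10 of 18, and Ocstamp stayed at or below 0.144 FPKM everywhere. Platelet markers (Itga2b, Pf4, Gp9, Ppbp and Gp1bb) summed to 15.3 to 19.4 FPKM in vSSC libraries and 10.4 to 22.6 FPKM in lbSSC libraries, with only Gp1bb expressed. The part of these cell types in the Itgb3 result was not tested. Itga2b, the platelet partner of Itgb3, averaged 0.522 ± 0.392 FPKM in vSSC libraries and 0.868 ± 0.10 FPKM in lbSSC libraries and was under the threshold for expression.

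The promoters of Itgb5 and Itga11, which were lower in vSSC, are shown with that of Itga10, the most abundant alpha chain, which did not pass the test. Each holds the 250 bases before the RefSeq start and the first 50 from it, on the plus strand of GRCm38.p6, at chr16:33829415-33829714 for Itgb5, chr9:62677605-62677904 for Itga11 and chr3:96645334-96645633 for Itga10. Capitals mark matches on either strand to 5 motifs that were searched.
Itgb5: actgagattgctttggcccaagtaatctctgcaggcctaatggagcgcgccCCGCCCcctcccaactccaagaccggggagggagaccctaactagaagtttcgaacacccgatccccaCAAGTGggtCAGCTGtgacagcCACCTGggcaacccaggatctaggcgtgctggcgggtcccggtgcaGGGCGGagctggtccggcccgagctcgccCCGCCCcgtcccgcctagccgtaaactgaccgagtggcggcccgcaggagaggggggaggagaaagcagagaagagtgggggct
Itga11: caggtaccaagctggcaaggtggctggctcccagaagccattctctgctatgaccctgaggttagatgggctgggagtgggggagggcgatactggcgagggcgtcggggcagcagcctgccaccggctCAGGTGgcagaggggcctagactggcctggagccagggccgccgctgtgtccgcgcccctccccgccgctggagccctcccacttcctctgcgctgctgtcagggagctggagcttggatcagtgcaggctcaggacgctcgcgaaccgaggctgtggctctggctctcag
Itga10: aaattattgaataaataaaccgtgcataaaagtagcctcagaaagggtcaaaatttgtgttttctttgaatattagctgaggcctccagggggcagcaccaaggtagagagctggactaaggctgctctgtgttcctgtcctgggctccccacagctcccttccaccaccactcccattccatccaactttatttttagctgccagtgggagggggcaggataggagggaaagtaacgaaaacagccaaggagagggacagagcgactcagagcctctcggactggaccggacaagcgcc
The motifs were the GC box GGGCGG, the TATA box TATAAA, the E-box CANNTG, the RUNX core TGTGGT and the SOX core AACAAT. Itgb5 held 3 GC boxes and 3 E-boxes, Itga11 held 1 E-box, and Itga10 held none of the 5, and no 2 matches overlapped. Of the 32851 promoters of this length in the RefSeq table, 35.7% held a GC box, 13.6% a TATA box, 72.3% an E-box, 16.8% the RUNX core and 10.7% the SOX core. GC content was 65.7% for Itgb5, 68.0% for Itga11 and 51.0% for Itga10, beside a median of 52.7%. A match describes these letters and does not mark a bound site. In the authors' table the genes lie at 16:33829665-33949153 (Itgb5), 9:62677826-62783982 (Itga11) and 3:96645584-96664519 (Itga10) in GRCm38. The other called integrins lie at 9:118606690-118901003 (Itga9) and 11:104608000-104670476 (Itgb3), and Cdh11 at 8:102632095-102785642.

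Among the laminin-binding chains, Itga6 did not pass the test and Itgb4 lay at the edge of expression in vSSC and below it in lbSSC. Itga6, which pairs with Itgb1 or Itgb4, averaged 11.8 ± 1.99 FPKM in vSSC libraries and 12.1 ± 1.61 FPKM in lbSSC libraries (-0.04 ± 0.14, adjusted p = 0.845). Itgb4, the beta chain of hemidesmosomes in epithelia, was at 1.04, 1.01, 1.58 and 0.982 FPKM in vSSC libraries, against 0.271, 0.397, 0.228 and 0.234 FPKM in lbSSC libraries. All vSSC libraries were above all lbSSC libraries, yet only 3 libraries reached 1 FPKM, so Itgb4 missed the threshold for testing by 1 library. With no filter on low values its difference was 0.74 ± 0.10 (adjusted p = 0.00366, limma over all entries with any value). The epithelial markers Cdh1, Epcam, Krt8 and Krt18 were each under 1 FPKM in every library and summed to 0.567 to 1.14 FPKM in vSSC libraries and 0.686 to 1.30 FPKM in lbSSC libraries. Itga3 and Itga7, the other laminin-binding chains, averaged 0.650 ± 0.323 and 0.441 ± 0.220 FPKM in vSSC libraries and 0.834 ± 0.282 and 0.400 ± 0.0210 FPKM in lbSSC libraries.

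Itga9, whose pair with Itgb1 binds tenascin C, osteopontin and VCAM1, was lower in vSSC with a wide spread. It was at 3.33, 0.890, 4.34 and 2.56 FPKM in vSSC libraries, against 7.01, 6.09, 8.77 and 5.26 FPKM in lbSSC libraries. Replicate 2 of vSSC was the only library under 1 FPKM, and the groups did not overlap. The difference was -1.12 ± 0.28 (adjusted p = 0.0153), -1.40 between the males and -0.84 between the females, and without lbSSC replicate 3 it was -1.0 (adjusted p = 0.050, rounded, just over the threshold). Itga4, the related chain, averaged 0.383 ± 0.256 FPKM in vSSC libraries and 0.602 ± 0.271 FPKM in lbSSC libraries and was under 1 in every library.

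Itgb1, the shared partner, showed no site difference that passed the test. It was at 134, 126, 136 and 137 FPKM in vSSC libraries, against 124, 144, 148 and 115 FPKM in lbSSC libraries. The vSSC libraries lay within the range of the lbSSC libraries, and the difference was 0.01 ± 0.11 (adjusted p = 0.960). Its sign depended on the scaling, from -0.23 under quantile normalization to 0.01 as deposited. The 12 alpha chains that can pair with Itgb1 summed to 107.0 ± 10.8 FPKM in vSSC libraries and 132.0 ± 10.5 FPKM in lbSSC libraries, without overlap. The ratio of Itgb1 to that sum was 1.25 ± 0.138 in vSSC libraries and 1.02 ± 0.171 in lbSSC libraries, and the groups overlapped. Itga10 held 43.1 ± 2.13% of the sum in vSSC libraries and 43.0 ± 1.55% in lbSSC libraries. Itgav held 18.9 ± 2.67% in vSSC libraries and 19.2 ± 1.17% in lbSSC libraries, and Itga5 held 15.8 ± 1.87% in vSSC libraries and 13.5 ± 1.74% in lbSSC libraries. Itga11 held 1.10 ± 0.238% in vSSC libraries and 2.81 ± 0.516% in lbSSC libraries, without overlap.

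Matrix-binding pairs were counted from 24 heterodimers known in mammals, a pair being present in message where both chains were expressed. This held for 10 pairs: Itgb1 with Itga1, Itga10 and Itga11 (collagen), Itgb1 with Itga6 (laminin), Itgb1 with Itga5, Itga8 and Itgav and Itgav with Itgb3 and Itgb5 (RGD ligands), and Itgb1 with Itga9. Both chains were at or above 1 FPKM in all 4 libraries for 7 of these pairs in vSSC and for all 10 in lbSSC. Itgb3, Itga9 and Itga11 needed their lbSSC libraries to pass the filter, so the lbSSC count was partly set by the filter. In the whole table, too, fewer genes reached 1 FPKM in vSSC libraries, as given above. The 3 that fell short in vSSC were Itga11 with Itgb1, in 3 of 4 libraries, Itga9 with Itgb1, in 3 of 4, and Itgav with Itgb3, in 1 of 4. The pair of Itga6 and Itgb4 went the other way, with both chains at 1 FPKM or more in 3 vSSC libraries and in no lbSSC library. In all 8 libraries the scarcer chain of each expressed pair was the alpha chain, except Itgb3 in its pair with Itgav. A chain's message says nothing of how much pair reaches the surface.

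**Figure D4:**
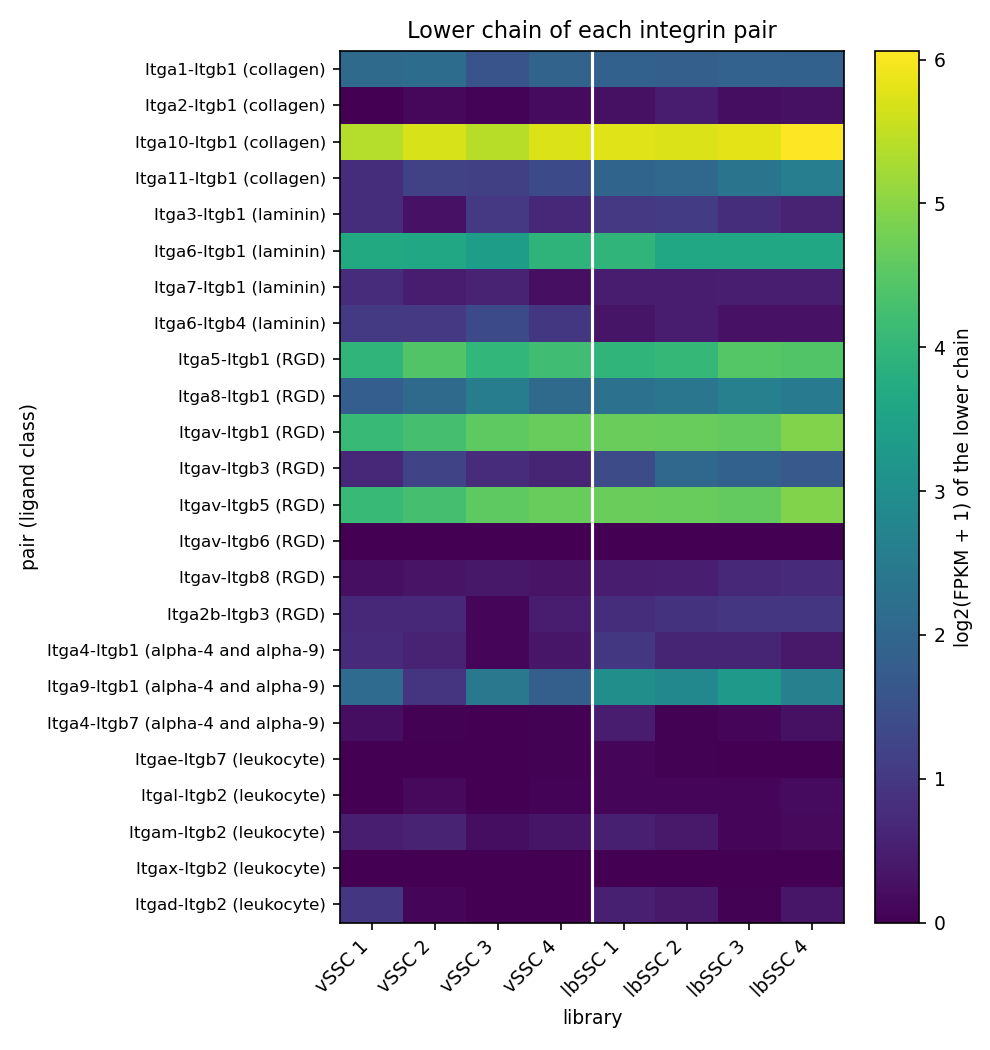
Level of the scarcer chain of each known integrin pair in each library, as colour on the log2(FPKM + 1) scale, vSSC libraries left of lbSSC libraries. The pairs Itga11-Itgb1, Itga9-Itgb1 and Itgav-Itgb3 are lower in all vSSC libraries than in all lbSSC libraries, as are Itga2-Itgb1, Itgav-Itgb8 and Itga2b-Itgb3, whose scarcer chain was not at 1 FPKM in any library, and Itga6-Itgb4 is higher in all vSSC libraries.

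None of the 5 leukocyte pairs had both chains at 1 FPKM in any library. Itgb2, the beta chain of all of them but the pair of Itgae and Itgb7, averaged 0.665 ± 0.271 FPKM in vSSC libraries and 0.281 ± 0.157 FPKM in lbSSC libraries. Itgam, the macrophage and neutrophil alpha chain, was at 0.430, 0.507, 0.161 and 0.260 FPKM in vSSC libraries, against 1.07, 1.69, 0.110 and 0.116 FPKM in lbSSC libraries, the 2 high ones being the lbSSC males. Its second gene model was at 0 in 7 libraries and at 0.123 FPKM in lbSSC replicate 3. Of 8 leukocyte markers, S100a8, S100a9, Lyz2, Cd52 and Laptm5 were expressed and the first 4 were higher in vSSC. The whole list summed to 224.1 to 367.0 FPKM in vSSC libraries and 23.6 to 101.2 FPKM in lbSSC libraries. Most of that sum was S100a8 and S100a9, whereas Ptprc stayed at or below 0.949 FPKM.

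Among cadherins, Cdh11 and Cdh2 were both lower in vSSC by about 1 on the log2 scale. Cdh11, the cadherin of osteoblasts and mesenchyme, was at 4.40, 6.11, 5.81 and 4.67 FPKM in vSSC libraries, against 12.4, 12.8, 12.3 and 9.72 FPKM in lbSSC libraries. All vSSC libraries were below all lbSSC libraries, and the difference was -1.04 ± 0.14 (adjusted p = 0.000435), -1.13 between the males and -0.94 between the females. Cdh2, the cadherin of mesenchymal condensations, was at 1.98, 2.11, 1.25 and 1.38 FPKM in vSSC libraries, against 5.43, 5.90, 6.30 and 3.01 FPKM in lbSSC libraries. The lowest lbSSC library, replicate 4, was still above the highest vSSC library. The difference was -1.18 ± 0.21 (adjusted p = 0.00229), -1.13 between the males and -1.22 between the females. The osteoblast markers given above were summed lower in every vSSC library than in any lbSSC library, most of the sum being Col1a1. Within that list Col1a1, Dmp1 and Bglap were lower in vSSC, Sp7 was higher (44.8 ± 3.28 FPKM in vSSC libraries and 29.1 ± 4.23 FPKM in lbSSC libraries, 0.61 ± 0.12, adjusted p = 0.00493) and Ibsp was not called. Their part in the Cdh11 and Cdh2 results was not tested.

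Cdh13, the cadherin that is held to the membrane by a lipid anchor, averaged 1.21 ± 0.708 FPKM in vSSC libraries and 1.76 ± 0.383 FPKM in lbSSC libraries, with overlap (-0.36 ± 0.22, adjusted p = 0.237). Cdh19, a cadherin of Schwann cells, was at 1.67, 1.27, 1.74 and 1.17 FPKM in vSSC libraries, against 0.565, 0.526, 1.21 and 0.654 FPKM in lbSSC libraries. It was the only expressed member that reached 1 FPKM in all vSSC libraries and in fewer than 2 lbSSC libraries, and lbSSC replicate 3 lay within the vSSC range. The difference of 0.51 ± 0.17 missed the threshold (adjusted p = 0.0527), and with a single library left out it ran from 0.46 to 0.63. The adjusted p was then 0.0385 without lbSSC replicate 3, 0.0474 without vSSC replicate 4, and between 0.0715 and 0.1205 without any 1 of the other 6 libraries. The part of Schwann cells in the Cdh19 values was not tested.

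The 22 cadherin entries together summed to 11.7 ± 1.45 FPKM in vSSC libraries and 22.1 ± 3.04 FPKM in lbSSC libraries, without overlap. Cdh11 held 44.8 ± 3.14% of this sum in vSSC libraries and 53.5 ± 2.77% in lbSSC libraries, and Cdh19 held 12.6 ± 2.42% in vSSC libraries and 3.32 ± 1.18% in lbSSC libraries. Both shares separated the groups, but the sum holds Cdh11 and Cdh2, which were called lower, so the shares are not separate evidence. The share of Cdh2 in the sum of Cdh2 and Cdh11 was 24.3 ± 5.55% in vSSC libraries and 29.9 ± 4.41% in lbSSC libraries, which overlapped. By structural type, 1 of 4 type I classical cadherins was expressed (Cdh2), 2 of 13 of type II (Cdh11 and Cdh19) and 1 of the 5 others (Cdh13). Cdh1, the E-cadherin of epithelia, was at most 0.608 FPKM, and Cdh5, the cadherin of endothelium, at most 0.0544 FPKM. All 6 endothelial markers were under 1 FPKM everywhere and summed to 0.210 to 0.287 FPKM in vSSC libraries and 0.0674 to 0.178 FPKM in lbSSC libraries.

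The 34 members under the expression threshold held 29 that were under 1 FPKM in every library and 5 that reached 1 in at least 1 library, namely Itga2b, Itga3, Itgam, Itgb4 and Cdh23. Itgb4 and Itga3, with 3 libraries at 1 FPKM, lay just outside the threshold, and Itgb3 and Cdh19, with 5, just inside. Cdh7, Cdh9, Cdh22, Itgax and Itgb6 were listed at 0 in all 8 libraries. Cdh23, a long cadherin known from the hair cells of the inner ear, was at 0, 0.270, 0.199 and 0.198 FPKM in vSSC libraries, against 0.405, 1.36, 1.16 and 0.758 FPKM in lbSSC libraries. The groups did not overlap, but the span of Cdh23 overlaps those of Vsir and Gm17455 on the opposite strand. Whether their exons overlap was not examined, and the libraries carry no strand. Itgb4, Cdh23 and the next 2 members were singled out after their values were seen. With no filter, Cdh18 (0.35 ± 0.09, adjusted p = 0.0406) and Itgb8 (-0.28 ± 0.08, adjusted p = 0.0446) were also called, at means of 0.353 ± 0.160 and 0.250 ± 0.0513 FPKM in vSSC libraries and 0.0583 ± 0.0611 and 0.524 ± 0.145 FPKM in lbSSC libraries.

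Between the sexes, with site as a covariate, limma called none of the 15 members, beside 5 of all tested genes (0.0466%). At an unadjusted p under 0.05 there was 1 member, Itga11, with a difference of -0.38 ± 0.16 (male minus female, adjusted p = 0.585), beside 8.31% of all tested genes. For the interaction of site and sex limma called no member and 0% of all tested genes, and at an unadjusted p under 0.05 there were 0 members, beside 3.77% of all tested genes. With 2 libraries per sex and site, the site differences of the 6 called members were negative in both sexes. That follows from all their vSSC libraries lying below all their lbSSC libraries, and it adds no further support.

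The partners of these receptors were counted from 3 lists. Of 21 expressed integrin adaptors and activators out of 28 listed, 1 was higher and 5 were lower in vSSC, with a median difference of -0.12. These 6 calls are 28.6% of the list, near the 23.5% of all tested genes. Lims2, which codes for the adaptor PINCH-2, averaged 20.2 ± 2.31 FPKM in vSSC libraries and 8.35 ± 2.24 FPKM in lbSSC libraries (1.21 ± 0.17, adjusted p = 0.000600). The tensins Tns3 (-0.60 ± 0.13, adjusted p = 0.00643) and Tns1 (-1.13 ± 0.26, adjusted p = 0.00983), which tie integrins to actin, were lower in vSSC. Tns3 averaged 14.7 ± 2.16 FPKM in vSSC libraries and 22.7 ± 1.51 FPKM in lbSSC libraries. Zyx, the focal adhesion protein zyxin, averaged 19.7 ± 3.55 FPKM in vSSC libraries and 29.4 ± 5.70 FPKM in lbSSC libraries, with overlap (-0.55 ± 0.16, adjusted p = 0.0311), and its call was lost in 7 of 19 alternatives, leaving out vSSC replicate 1 or 3 or lbSSC replicate 3 or 4 among them (adjusted p 0.0142 to 0.956 over the alternatives). The remaining 2 called adaptors, named after their values were seen, were Parva and Actn1, both lower in vSSC, and their calls were lost in 9 and 10 of 19 alternatives.

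Of 7 expressed catenins and related cadherin partners out of 11 listed, limma called none, 3 had an unadjusted p under 0.05, and the median difference was -0.21. Of 21 expressed matrix ligands out of 25 listed, 1 was higher and 7 were lower in vSSC, with a median difference of -0.16. These 8 calls are 38.1% of the list, beside 23.5% of all tested genes. Col1a1, the chain of type I collagen bound by Itga11 with Itgb1, averaged 723.4 ± 71.5 FPKM in vSSC libraries and 4093 ± 836 FPKM in lbSSC libraries (-2.48 ± 0.15, adjusted p = 1.0e-06). Npnt, nephronectin, the ligand of Itga8 with Itgb1, averaged 2.21 ± 0.201 FPKM in vSSC libraries and 6.61 ± 1.42 FPKM in lbSSC libraries (-1.23 ± 0.16, adjusted p = 0.000327). Vcam1, a ligand of Itga9 with Itgb1, averaged 0.876 ± 0.720 FPKM in vSSC libraries and 5.08 ± 0.667 FPKM in lbSSC libraries (-1.77 ± 0.24, adjusted p = 0.000428). Col3a1, a fibrillar collagen, averaged 225.1 ± 13.8 FPKM in vSSC libraries and 448.0 ± 79.6 FPKM in lbSSC libraries (-0.98 ± 0.13, adjusted p = 0.000370). Mfge8, a secreted protein bound by Itgav pairs and the only ligand that was higher, averaged 1573 ± 49.9 FPKM in vSSC libraries and 1161 ± 107.3 FPKM in lbSSC libraries (0.44 ± 0.11, adjusted p = 0.0159), and its call was lost in 5 of 19 alternatives, leaving out lbSSC replicate 3 among them (adjusted p 0.0127 to 0.177 over the alternatives). The receptor chains Itga11 and Itga9 and the ligands Col1a1, Col3a1 and Vcam1 were each lower in vSSC, while Itga8 did not pass the test and its ligand Npnt did. Mfge8 was higher, whereas Itgb5 and Itgb3, beta partners of Itgav, were lower. Whether receptors and ligands change together was not tested.

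The calls on 4 members depended on how the ribosomal protein share was treated. With that share as a covariate, the difference was -0.62 for Itga11 (adjusted p = 0.192), -1.52 for Itga9 (adjusted p = 0.0794), -0.81 for Itgb3 (adjusted p = 0.201) and -0.46 for Itgb5 (adjusted p = 0.0802). The calls of Cdh11 (-1.17, adjusted p = 0.0110) and Cdh2 (-1.36, adjusted p = 0.0386) held. Of the called partners, none of the 6 adaptors kept its call in that fit. Among the 8 called ligands, Col1a1, Npnt, Col3a1 and Vcam1 kept theirs, and Mfge8, Ltbp1, Lamc1 and Nid1 lost theirs. The share itself differed between the groups, as given above, and its part in the results was not tested.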

How the data were processed

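The authors deposited FPKM per protein-coding gene for 8 libraries. Libraries came from column-purified RNA by SMART-Seq v4 plus Nextera XT, per the labels' protocols, and keep no strand. The submitters' processing notes name Cufflinks 2.1.1, STAR 2.5.2, bcl2fastq 2.19 and the build GRCm38, with no further settings. FPKM is a share of the library per transcript length, so abundant genes can lower all others, and depth stayed unknown.

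The table held 22053 entries for 22007 gene identifiers. All 49 members matched GENCODE M21, and 1 was added to each listed start, after which 41 equalled the annotated start. The 4 libraries of each group were compared as log2(FPKM + 1) with limma 3.58.1 in R 4.3.3 (empirical Bayes, variance trend, no covariate) over the 10729 entries at 1 FPKM or more in at least 4 libraries. Sex was tested in a model that held site, and their interaction in a further model. The procedure was tested on simulated data.

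Every expressed member is named, others are given by number, name and range, and of each list of partners or markers up to 4 called genes with the smallest p are named. Further called partners, Mfge8 among them, were named after their values were seen. The Schwann cell marker list is not reported here. Members, lists, pairs and alternatives were chosen with earlier results of these data known. Promoters are from RefSeq, GRCm38.p6, and 30 of the 48 member symbols had an entry. Alternatives were other pseudocounts, filters, scalings and covariates, the replicate number as a block, no variance trend, and leaving out libraries.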

Additional observations from a re-analysis of the deposited data

Results flagged for a closer look

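Among the 30 sets of 4 libraries formed by the 15 expressed members and both groups, 2 held a library far from the other 3, and chance gives about 1 in 20 such sets. In Itga6, lbSSC replicate 1 was at 14.5 FPKM and the others between 11.2 and 11.4 FPKM, so that the gap made up 0.9529 of the range. In Cdh11, lbSSC replicate 4 was at 9.72 FPKM and the others between 12.3 and 12.8 FPKM, so that the gap made up 0.8375 of the range. That library was still above all vSSC libraries, and without any single library the difference of Cdh11 stayed between -1.12 and -0.97.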

How the results depend on the processing

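Of the 6 members lower in vSSC, Cdh11 and Cdh2 kept their calls in all alternatives they were tested in, 19 and 18. The number of members called was 3 with a filter at an FPKM of 5, where 8 members were tested, 2 with the ribosomal protein share added, 9 with no filter (of 44 tested) and 6 to 7 with a single library left out. Over all alternatives the adjusted p ran from 0.000665 to 0.192 for Itga11, from 0.00274 to 0.0794 for Itga9, from 0.00317 to 0.201 for Itgb3 and from 0.00102 to 0.0802 for Itgb5. It ran from 0.0235 to 0.409 for Cdh19 and from 0.0371 to 0.962 for Itga10. With no filter the adjusted p of Itga9 was 0.0520. The number of all genes called, 2518, was 623 with the ribosomal protein share, 1095 without both vSSC replicates 1 and 3, and 1534 to 2991 with a single library left out. The cause was not tested.

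Signs turned only in members that no fit called in the turned direction. With the ribosomal protein share added the difference was 0.041 for Itga6, 0.021 for Itga10, 0.36 for Itga5 and -0.0067 for Itgb1. Without both vSSC replicates 1 and 3 it was 0.087 for Itga6, 0.090 for Itga5 and -0.010 for Itgb1. Itgb1 was at -0.075 under median-of-ratios scaling, -0.23 under quantile normalization and -0.14 when rescaled to one sum, and Itga1 at -0.0046 under median-of-ratios scaling and -0.051 when rescaled to one sum. With a single library left out the difference ran from -0.14 to 0.047 for Itga6, from -0.056 to 0.062 for Itgb1, from -0.010 to 0.18 for Itga1 and from -0.17 to 0.0065 for Itga5. Counts of members called for sex and for the interaction were 0 in all alternatives.

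With the replicate number as a block, 7 members and 3194 genes were called, Cdh19 being added at an adjusted p of 0.0481. Same-numbered libraries correlated between -0.09 and 0.44, 2 of 4 best with their own number. These 4 correlations, which also carry sex, cannot decide whether the numbers pair the libraries. Other scalings moved the share of higher genes among all calls, 60.9% as deposited, to 51.9% with median-of-ratios, 50% with quantile normalization and 42.4% with one sum. Depth was unknown, which limits the members below 2 FPKM most.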
